A study of Mus musculus with 6 samples.

Results

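The glutathione S-transferases outside the alpha and mu classes were examined in mouse skin with an active Nrf2 transgene. The 10 genes were Gstp1 of the pi class, Gsto1 and Gsto2 of the omega class, Gstt1, Gstt2 and Gstt3 of the theta class, Gstk1 of the kappa class, and the microsomal genes Mgst1, Mgst2 and Mgst3. The genes were chosen by family, with earlier results of these data known. Every probe set that the array annotation assigns to any of their symbols was taken, whatever its values. These 10 of the 18193 genes with a symbol on the array had 13 of its 45037 probe sets, and 0 of them were shared with another gene symbol. Gsto1, Mgst1 and Mgst3 had several probe sets each and the other genes had 1.

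Whole back skin was taken on postnatal day 2.5 from 6 female mice of 1 litter on a mixed FVB/N/C57BL/6 background, and each mouse gave 1 Affymetrix array. The 3 caNrf2 mice carried K5cre-caNrf2 (tg/tg), in which a constitutively active form of Nrf2 is placed in the keratin 5-expressing keratinocytes that K5cre targets. The 3 control mice were K5cre-wt (tg/wt), so Cre was present in both groups. The genotype entry of the caNrf2 samples reads tg/g, which was taken here as a slip for tg/tg. The treatment entry names CaNrf2 on all 6 samples, and groups therefore follow the sample titles. The title of the series names the search for Nrf2 target genes in skin as its purpose, and the comparison shows which transferase transcripts differed between the genotypes. Because RNA came from whole skin, fewer cells of a type and less RNA per cell cannot be told apart. Cells that K5cre does not target, such as fibroblasts, muscle and blood cells, contribute to every value.

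Glutathione S-transferases join the thiol of glutathione to electrophilic compounds, which are then exported from the cell and excreted. The pi, omega and theta enzymes are soluble, the kappa enzyme is found in mitochondria and peroxisomes, and the microsomal enzymes are unrelated membrane proteins of the MAPEG superfamily. Nrf2 is a transcription factor that pairs with small Maf proteins at antioxidant response elements and switches on many detoxification genes. Such an element resembles, and can overlap with, the site bound by AP-1 proteins.

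Upstream sequences of the 4 genes that were higher in caNrf2 skin are shown because those elements are usually sought there. Each is the stretch of 250 bases before a transcription start in RefSeq's annotation of GRCm38.p6, written 5′ to 3′ on the strand of the gene. Matches to TGACNNNGC (taken here as the core of an antioxidant response element) or TGANTCA (an AP-1 type site) are in capitals. The positions are chr19:4037913-4038162 on the minus strand for Gstp1, chr19:47854723-47854972 on the plus strand for Gsto1, chr6:138140277-138140526 on the plus strand for Mgst1 and chr3:51660929-51661178 on the plus strand for Mgst2.
Gstp1 upstream window: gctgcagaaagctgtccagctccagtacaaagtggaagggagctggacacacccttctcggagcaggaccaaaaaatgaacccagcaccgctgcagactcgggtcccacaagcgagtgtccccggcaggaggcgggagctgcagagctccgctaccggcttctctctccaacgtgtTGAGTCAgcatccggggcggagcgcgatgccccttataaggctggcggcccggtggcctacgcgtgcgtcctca
Gsto1 upstream window: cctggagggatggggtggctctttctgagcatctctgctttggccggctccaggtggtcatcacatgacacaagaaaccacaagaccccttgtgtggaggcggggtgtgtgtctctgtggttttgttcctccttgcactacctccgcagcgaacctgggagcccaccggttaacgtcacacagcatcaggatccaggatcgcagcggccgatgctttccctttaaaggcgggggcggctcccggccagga
Mgst1 upstream window: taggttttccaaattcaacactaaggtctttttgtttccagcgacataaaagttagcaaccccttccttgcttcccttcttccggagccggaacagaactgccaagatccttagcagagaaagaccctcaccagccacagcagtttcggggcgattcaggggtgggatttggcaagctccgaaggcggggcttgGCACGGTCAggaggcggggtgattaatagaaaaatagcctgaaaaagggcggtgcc
Mgst2 upstream window: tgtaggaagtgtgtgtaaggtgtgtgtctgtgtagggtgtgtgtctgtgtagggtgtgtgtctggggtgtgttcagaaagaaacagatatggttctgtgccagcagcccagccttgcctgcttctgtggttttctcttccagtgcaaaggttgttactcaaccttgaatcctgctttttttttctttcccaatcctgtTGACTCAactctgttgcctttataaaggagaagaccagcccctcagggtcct

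The table held 12 such windows for 9 of the 10 genes, and Gstt2 had none. Both strands were searched, and a palindromic match was counted once. TGACNNNGC was found in 1 of the 12, the Mgst1 window shown, where TGACCGTGC lies on the minus strand from 56 to 48 bases before the start. Of all 32851 windows of this length in the table, 10.2% held TGACNNNGC. TGANTCA was found in 2 of the 12 windows. In Gstp1 it reads TGAGTCA from 74 to 68 bases before the start, and in Mgst2 it reads TGACTCA from 52 to 46 bases before the start. The Gstp1 match is followed directly by GC. With these bases it differs from TGACNNNGC only in having G in place of C after TGA. A core with G at that base was not searched for in any window, so no share of all windows can be set beside it. The count for TGACNNNGC leaves these Gstp1 bases out. Of all windows, 6.75% held TGANTCA. The combined form TGACTCAGC, which matches both patterns, was in 0 of the 12 and in 0.39% of all windows. The Gsto1 window held none of these letter patterns, and neither did those of Gsto2, Gstt1, Gstt3, Gstk1 and Mgst3. The other Mgst1 window, which lies before a further annotated start and is not shown, held none either. These matches are letters in a window and no measurement of binding.

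Each value is an intensity (linear scale) of a probe set, and differences were tested on log2 intensity with limma and Benjamini-Hochberg adjustment over all 45037 probe sets, a probe set being called at an adjusted p under 0.05. Intensities of different probe sets depend on their probes and are not set against each other. Median intensity per array ran from 80.3 to 81.6. The lower quartile ran from 24.9 to 25.4 on caNrf2 and from 23.8 to 24.3 on control arrays. The upper quartile ran from 325 to 328 and from 334 to 341, so the caNrf2 distributions were slightly narrower. As a gauge of background, since the mice were female, probe sets of Y-linked genes had group means from 6.46 to 61.6, with both means under 20 for 14 of 20.

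In caNrf2 skin 4 of the 10 genes were higher, 0 were lower and 6 did not pass. Gsto1 rose 2.2-fold, Mgst2 1.96-fold, Gstp1 1.93-fold and Mgst1 1.46-fold. By probe set, 5 of 13 were higher, where 1.04% of all probe sets were. None of the 13 was called lower, where 0.633% of all probe sets were, and 1 was lower at an unadjusted limma p under 0.05, where 8.53% of all probe sets were. The caNrf2 arrays lay above all control arrays in the same 5 probe sets and below them in 1, where 11.4% and 11.7% of all probe sets did so. The median log2 fold change of the 10 genes was 0.04 and that of all 18193 genes was -0.00.

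**Figure D1:**
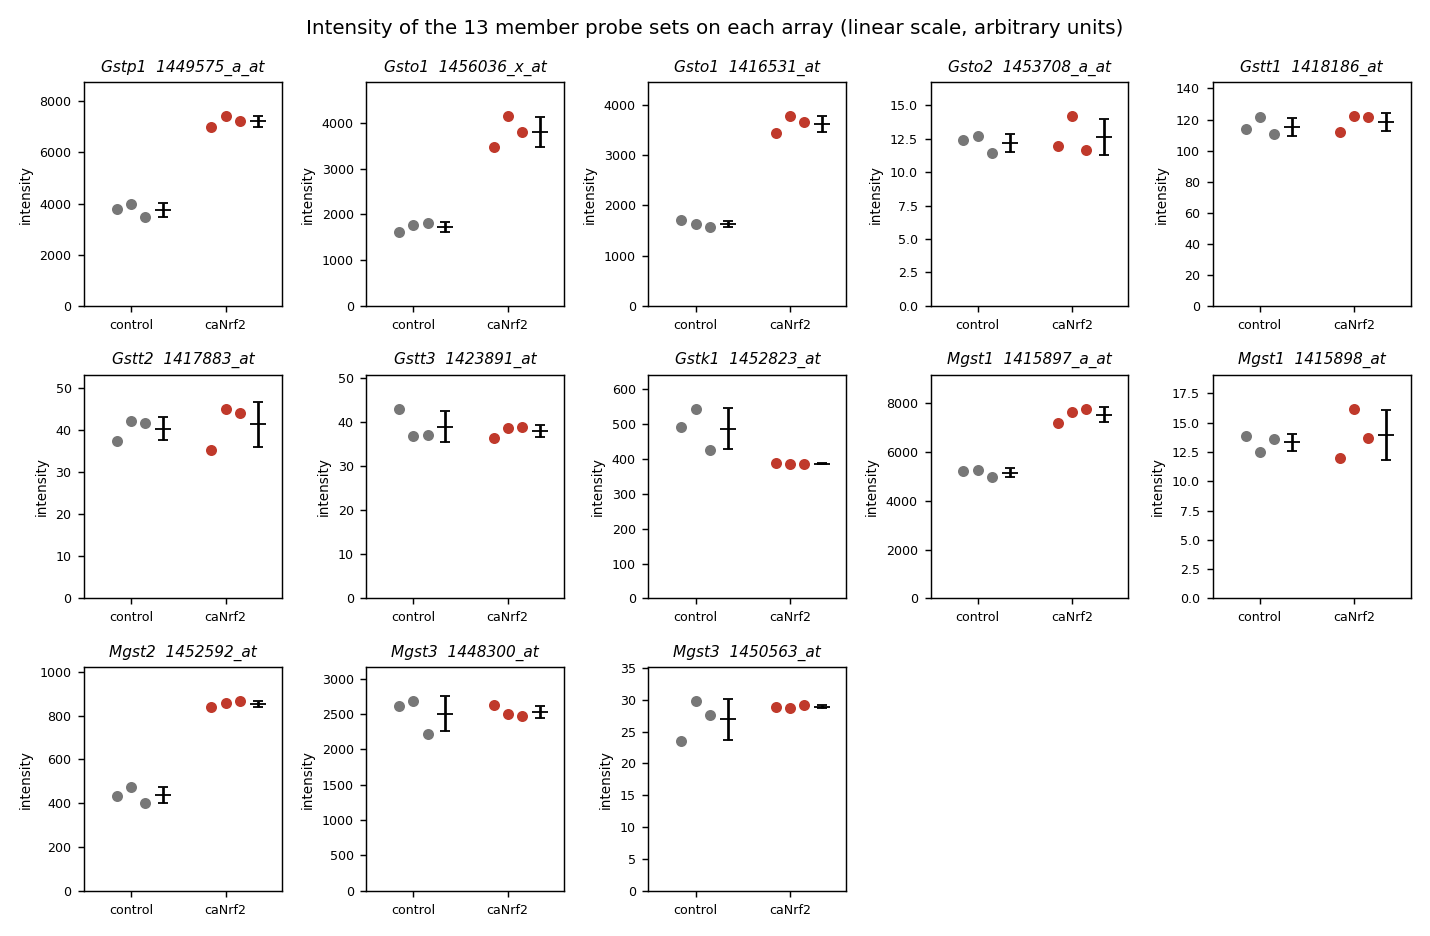
Intensity (linear scale from 0, arbitrary units, a separate axis per panel) of each of the 13 member probe sets on the 3 control arrays (grey) and 3 caNrf2 arrays (red), with the mean and SD in black. The groups are apart in Gstp1, both Gsto1 probe sets, the brighter Mgst1 probe set, Mgst2 and, downwards, Gstk1.

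Gstp1 codes for the pi class enzyme, which conjugates a wide range of electrophiles and also binds stress kinases. Its probe set read 3773, 3989 and 3473 in control replicates 1, 2 and 3, and 6982, 7403 and 7232 in caNrf2 replicates 1, 2 and 3. Every caNrf2 array was well above every control array, and control replicate 3 was the lowest. The means were 3745 ± 259 and 7206 ± 212 (mean intensity ± SD, n = 3). On the log2 scale this rise was 0.95 ± 0.07 (SE), with an adjusted p of 8.33e-05 in limma. In RefSeq's gene order Gstp1 lies next to the related gene Gstp2, for which no probe set of its own was matched, and whether the Gstp1 probe set also detects Gstp2 was not tested. Gstp3, a further pi class gene chosen here after its values were seen, rose from 41.0 ± 4.29 to 64.15 ± 6.21, by 0.65 ± 0.10 on the log2 scale (n = 3; limma, adjusted p = 0.00903), with its control mean inside the range of Y-linked probe sets.

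Gsto1, an omega class enzyme with a cysteine in its active site, reduces dehydroascorbate and methylated arsenic compounds in place of the usual conjugation. Its brighter probe set read 1606, 1771 and 1809 in the controls and 3467, 4143 and 3798 in caNrf2 skin. The other read 1700, 1623 and 1578 in the controls and 3449, 3770 and 3656 in caNrf2 skin. Both put all caNrf2 arrays above all controls, with caNrf2 replicate 2 as the highest and caNrf2 replicate 1 as the lowest of the group. Their log2 fold changes were 1.14 ± 0.08 and 1.15 ± 0.07 (SE, n = 3; limma, adjusted p = 6.65e-05 and 1.07e-05), so the estimates differ by less than their errors.

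Gsto2, the other omega gene and the neighbour of Gsto1 on chromosome 19, is the more active dehydroascorbate reductase. It read 12.4, 12.7 and 11.4 in the controls and 12.0, 14.2 and 11.7 in caNrf2 skin, all among the dim values of Y-linked probe sets. The groups overlap, and the difference was 0.05 ± 0.09 on the log2 scale (SE; adjusted p = 0.812 in limma), with a 95% interval from -0.15 to 0.24. At a signal this close to background a change in the transcript may not be detectable.

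Theta class enzymes, which act on small halogenated compounds and on sulfate esters, gave 3 probe sets, and 0 of them passed, also at an unadjusted limma p under 0.05. Gstt1 read 114, 121.6 and 110.4 in the controls and 111.9, 122.0 and 121.6 in caNrf2 skin. The difference was 0.04 ± 0.07 on the log2 scale (SE; adjusted p = 0.809 in limma), with a 95% interval from -0.12 to 0.20. The groups overlap, and a rise as large as that of Mgst1 lies outside this interval. Gstt2 averaged 40.4 ± 2.62 and 41.5 ± 5.38, and Gstt3 38.9 ± 3.51 and 37.9 ± 1.42 (mean intensity ± SD, n = 3), all inside the range of Y-linked probe sets. Their log2 fold changes were 0.03 ± 0.10 and -0.03 ± 0.08, with 95% intervals from -0.19 to 0.25 and from -0.21 to 0.14. In RefSeq's gene order on chromosome 10, Ddt, Gstt3, Gstt1, Gstt4, Gstt2 and Mif follow each other, and 0 of these 6 genes passed in limma. At an unadjusted p under 0.05 the count was also 0. Mif, the cytokine at the end of this row, read 4283 ± 312 in control and 4545 ± 86.1 in caNrf2 skin.

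Gstk1, the kappa class enzyme of mitochondria and peroxisomes, is also known as DsbA-L and has a part in adiponectin assembly. Its probe set read 492.6, 544 and 426.3 in control replicates 1, 2 and 3. The caNrf2 arrays read 387.7, 385.1 and 386.1. They lay close together and below every control, of which control replicate 3 was the lowest. The means were 487.6 ± 59.0 and 386.3 ± 1.31 (mean intensity ± SD, n = 3), which differ by -0.33 ± 0.09 on the log2 scale (SE). It did not pass after adjustment (limma, adjusted p = 0.11; unadjusted p = 0.0042). Without control replicate 3 it passed, at -0.42 with an adjusted p of 0.0457, and it also passed when limma used an intensity trend with robust variances (limma, adjusted p = 0.0361). Over the other 13 alternatives the adjusted p ran up to 0.291.

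**Figure D2:**
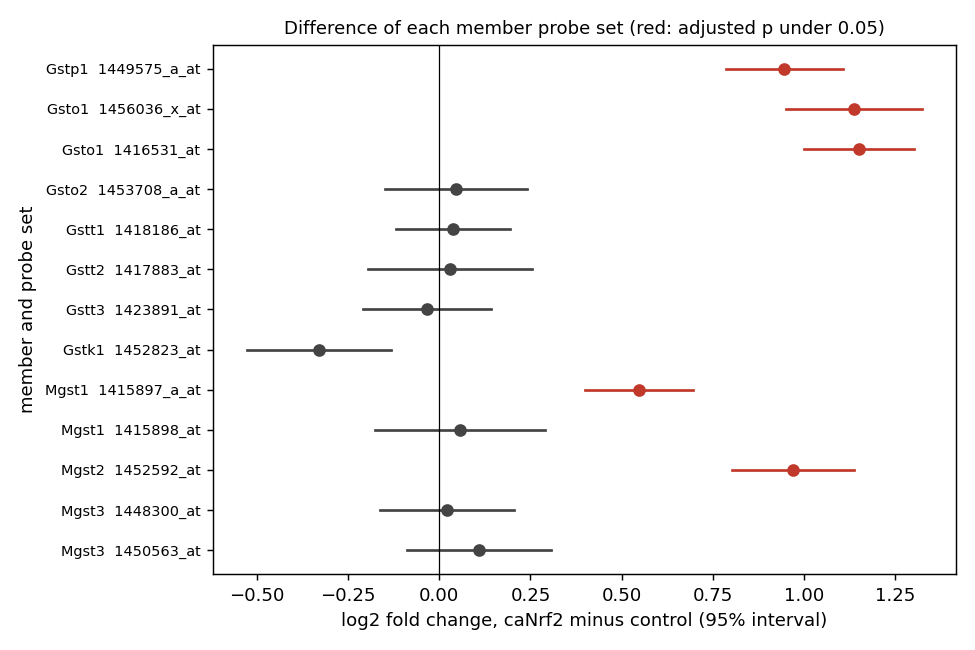
Log2 fold change of each member probe set (caNrf2 minus control, points) with its 95% interval (lines), from limma with 3 arrays per group, called probe sets in red. The red points lie between 0.55 and 1.15, and the lowest point is Gstk1 at -0.33.

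Of the 3 microsomal genes 2 were called. Mgst1, a membrane enzyme of the endoplasmic reticulum and the outer mitochondrial membrane with both transferase and peroxidase activity, read 5230, 5279 and 4961 in the controls and 7195, 7659 and 7771 in caNrf2 skin on its brighter probe set. All caNrf2 arrays were above all controls, and the smallest gap lay between control replicate 2 and caNrf2 replicate 1. The means were 5157 ± 171 and 7542 ± 306 (mean intensity ± SD, n = 3), and the rise was 0.55 ± 0.07 on the log2 scale (SE; adjusted p = 0.0022 in limma). Its dim second probe set, at 13.3 ± 0.722 and 13.95 ± 2.11 (SD, n = 3), was not called (0.06 ± 0.10; limma, adjusted p = 0.813). Averaging both probe sets therefore lowers the Mgst1 estimate to 0.30, with an adjusted p of 0.0497.

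Mgst2, which conjugates glutathione to leukotriene A and to xenobiotics and reduces lipid hydroperoxides, read 434.4, 474.4 and 401.4 in the controls. In caNrf2 skin it read 837.6, 856.2 and 864.8. No caNrf2 array came near the controls, and control replicate 3 was again the lowest. The rise was 0.97 ± 0.07 on the log2 scale (SE), with an adjusted p of 9.51e-05 in limma.

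Mgst3, a microsomal peroxidase and transferase of the same superfamily, read 2608, 2678 and 2221 in the controls and 2630, 2501 and 2466 in caNrf2 skin on its brighter probe set. The groups overlap, and the control spread is set by control replicate 3. The difference was 0.02 ± 0.08 on the log2 scale (SE; adjusted p = 0.918 in limma), with a 95% interval from -0.16 to 0.21. The dimmer probe set averaged 26.9 ± 3.19 and 28.9 ± 0.206 (mean intensity ± SD, n = 3) and gave 0.11 ± 0.09 (limma, adjusted p = 0.55).

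Members of 1 class were compared by their log2 ratio on each array, in 7 pairs. The ratio of Mgst2 to Mgst1 lay higher on all 3 caNrf2 arrays. The difference between the log2 fold changes of Mgst1 and Mgst2 was -0.42 ± 0.05 (SE), without overlap of the groups. The difference was 0.95 ± 0.05 for Mgst2 against Mgst3, 0.53 ± 0.08 for Mgst1 against Mgst3 and 1.09 ± 0.10 for Gsto1 against Gsto2, again without overlap. Gsto2 read close to background, so its pair cannot show whether the Gsto2 transcript stayed unchanged. Each of these 4 pairs gave p = 0.1 in an exact permutation test (two-sided; 0.175 adjusted over the 7 pairs). With 3 arrays per group no smaller value is possible, so no pair could pass a threshold of 0.05. The 3 theta pairs overlapped, with differences from 0.01 to 0.07 and an exact permutation p of at least 0.6.

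**Figure D3:**
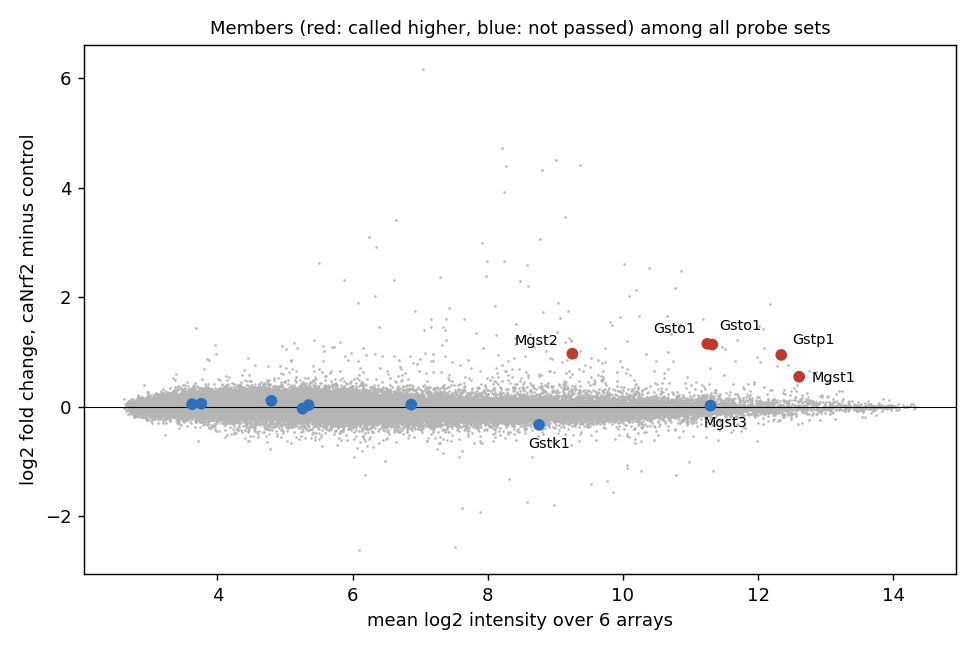
Log2 fold change (caNrf2 minus control) against mean log2 intensity over 6 arrays for all 45037 probe sets (grey) and the 13 members (red where called higher, blue where not passed). The 5 red members lie between 0.55 and 1.15, above most grey points of like intensity, and Gstk1 lies at -0.33.

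Likeness was measured as the root mean square difference between log2 profiles over the 6 arrays, each profile centred on its own mean. For Gsto1, the nearest genes outside the members were Cat (catalase) at 0.04, the glycine transporter Slc6a9 at 0.07 and Artn, a neurotrophic ligand, at 0.09. Cat read 1593 in control and 3591 in caNrf2 skin, with a log2 fold change of 1.17 ± 0.07 (SE). For Gstp1 they were Arrdc4, an arrestin-domain protein, at 0.03, the exonuclease gene Trex2 at 0.04 and the epoxide hydrolase Ephx1 at 0.05. Ephx1 rose by 0.86 ± 0.07 (limma, adjusted p = 8.33e-05), close to the 0.95 of Gstp1. As the mean of all probe sets of the gene, Slc6a9 rose by 0.83 and Arrdc4 by 0.75, against 1.16 and 0.89 on the probe sets used here. The Cat probe set used here was not the brightest of its gene, and the brighter reading is not given. The nearest genes were picked by their values, so their likeness is a description of the profiles over 6 arrays that fall into 2 groups.

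The other cytosolic transferases, largely alpha and mu class, were listed for comparison. Of 15 measured genes of the alpha, mu, pi, theta, sigma and zeta classes with Gstcd, 9 were higher, 0 were lower and 6 did not pass, with a median log2 fold change of 0.65. All 3 measured alpha genes were higher, with a median of 3.06, and 5 of 7 mu genes, with a median of 0.81. The 4 with the smallest p were Gsta3 at 6.17 ± 0.14, from a control mean of 15.8 near background and with 2.62 on its other probe set, Gstm1 at 2.53 ± 0.08, Gsta4 at 3.06 ± 0.10 and Gstm3 at 1.40 ± 0.07, with 0.74 on its other probe set (SE; limma, adjusted p at most 3.43e-06). As the mean of its probe sets Gstm1 rose by 2.29. The highest of the 10 members, Gsto1, rose by 1.14 on the same scale.

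**Figure D4:**
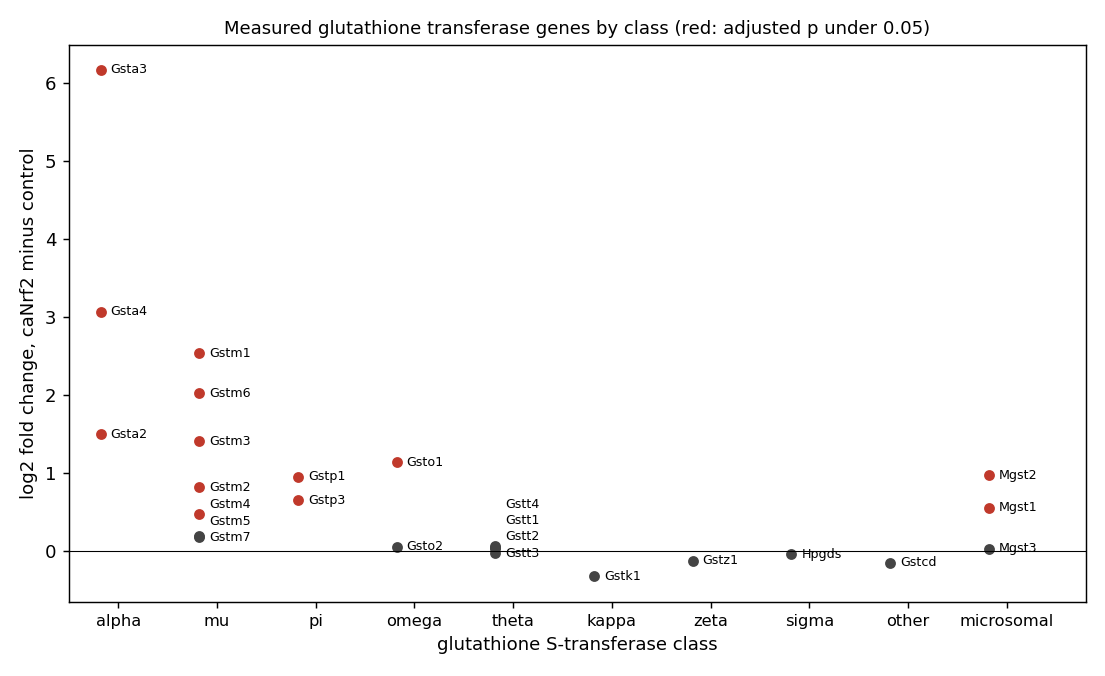
Log2 fold change (caNrf2 minus control) of each measured glutathione transferase gene by class, red where the adjusted p was under 0.05. Alpha and mu genes reach 6.17 and 2.53, pi, omega and microsomal genes reach at most 1.14, and theta, kappa, zeta and sigma genes hold no called gene.

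Genes of leukotriene and prostaglandin synthesis, only some of which are relatives of the microsomal genes, gave no call. Of 6 measured, 0 passed in limma, and 0 had an unadjusted p under 0.05, with a range from -0.03 to 0.10. Ltc4s, the leukotriene C synthase related to Mgst2, read 181.7 ± 14.4 and 194 ± 13.8, which differ by 0.10 ± 0.08 on the log2 scale. Alox5, which makes the leukotriene A substrate, gave 0.08 ± 0.07, its activating protein Alox5ap 0.06 ± 0.07 and the hydrolase Lta4h -0.03 ± 0.06 (SE, n = 3).

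Several genes that supply glutathione, the shared substrate, were higher as well. Of 13 measured genes of glutathione supply and thiol reduction, 6 were higher, 0 were lower and 7 did not pass, with a median of 0.14. Of these 7, Cbs at -0.24 ± 0.07 and Cth at -0.21 ± 0.09 (SE) were lower at an unadjusted limma p under 0.05. Glutathione synthetase Gss rose from 274 ± 38.4 to 1010 ± 60.5, which is 1.89 ± 0.10 on the log2 scale (adjusted p = 6.24e-06 in limma), and the cystine importer Slc7a11 and the ligase subunits Gclc and Gclm rose by 3.41, 1.61 and 1.51. At 30.7 the control mean of Slc7a11 is no brighter than some Y-linked probe sets, and with log2(value + 16) its rise was 2.87. Downstream of conjugation, 3 of 15 genes of conjugate export and mercapturate formation were higher, 0 were lower and 12 did not pass, with a median of 0.01. The 3 were the efflux pumps Abcc3, Abcc4 and Abcc1, at 2.36, 2.58 and 0.68. The peptidase Lap3 had the next smallest p, at -0.21 ± 0.06 (SE; limma, adjusted p = 0.145), and was called lower under trended, robust variance moderation (adjusted p = 0.0259). Of 6 genes of tyrosine breakdown and the Ddt and Mif family, 0 passed and 1 had an unadjusted limma p under 0.05. Hpd gave 0.17 ± 0.07, Tat 0.18 ± 0.09, Ddt -0.14 ± 0.10 and Mif 0.09 ± 0.07. All 5 reference genes were higher, which was known when they were listed and is no independent evidence. Nfe2l2, the gene of Nrf2, rose by 0.63, and whether its probe set also reads the transgene was not tested. The Nrf2 targets Nqo1, Gpx2, Srxn1 and Hmox1 rose by 4.39, 4.51, 4.41 and 1.22. Srxn1 rose by 3.37 as the mean of its probe sets, the lowest of which gave 0.84.

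Markers of the cell types of skin were read beside these values. Of 70 measured markers in 13 lists, 0 were higher and 4 were lower, namely Ivl at -0.55, Lep at -0.58, Scd3 at -0.92 and Elovl3 at -0.38. The summed intensity of 6 basal keratinocyte markers ran from 29930 to 30580 in control and from 30710 to 31240 in caNrf2 arrays, and 0 of the 6 passed. Their median log2 fold change was -0.03, with 3 of 6 above 0, and the sum follows its brightest probe sets. That of 5 hair fibre markers ran from 15150 to 18020 and from 14150 to 15180, and that of 6 melanocyte markers from 11550 to 12220 and from 9765 to 10800, with 0 called in either list. Of the 5 hair fibre and 6 melanocyte markers, 2 and 6 had an unadjusted limma p under 0.05. The sum of 6 fibroblast markers ran from 71070 to 73630 and from 68970 to 70500. Their median log2 fold change was -0.05, with 0 called and 0 at an unadjusted limma p under 0.05. The sum of 6 endothelial markers ran from 1369 to 1442 and from 1461 to 1483, with 6 of 6 above 0 and 0 called. Without overlap, the basal keratinocyte and endothelial sums were above, and the melanocyte and fibroblast sums below, those of the controls. That is 2 of 13 lists each way, where 11.4% of all probe sets lay above and 11.7% below without overlap. The part of these cell types in the Gstk1 value and in the rises was not tested. The sums of the other 9 lists overlapped between the groups. Control replicate 3 was the lowest control in 8 of 13 member probe sets and in 37.5% of all probe sets. With any single array left out, the log2 fold changes stayed between 0.89 and 0.99 for Gstp1, 0.91 and 1.03 for Mgst2, 0.52 and 0.58 for Mgst1 and 1.07 and 1.20 for the brighter Gsto1 probe set, each still called.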

How the data were processed

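Per the submitters' processing notes the authors summarised the arrays with RMA (background correction, quantile normalization and probe summary), and the deposited values are intensities on a linear scale, which the authors had not left on a log scale. The RMA version is not given in the sources used here. This makes the arrays' distributions nearly the same, and a change shared by most transcripts would be removed. The table lists 45101 probe sets, of which 64 control probe sets were left out. Of the other 45037, symbols came from the array annotation, updated by Entrez identifier through RefSeq's GRCm38.p6 gene table.

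The log2 of each intensity was modelled with limma 3.58.1 in R 4.3.3 (lmFit and eBayes, group as the only term, 4 residual and 5.72 prior degrees of freedom), two-sided, with Benjamini-Hochberg adjustment over all 45037 probe sets. All member probe sets were reported. The brightest single-symbol probe set stood for a gene in gene lists. No low values were removed, and each n of 3 counts mice. Named genes are the 10 members, up to 4 genes with the smallest p of each of 6 pathway lists, and the 3 nearest profiles to the 2 members with the smallest p. Of the cell type lists, called markers are named. Nfe2l2, Gstp3, Gstt4, Cbs and Cth are named outside this rule, after their values were seen. Gstcd and the unmeasured Gstp2 are also named outside it. Of 68 pathway entries 60 were measured, and of 78 marker entries 70. Members and lists were chosen with earlier results of these data known. The alternatives covered the features fitted, a minimum intensity, a pseudocount, 2 normalizations, variance moderation, array weights, the replicate block and leaving out each array.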

Additional observations from a re-analysis of the deposited data

How the results depend on the processing

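The 5 member probe sets called higher (Gstp1, both of Gsto1, Mgst1 and Mgst2) were called in every alternative that fitted them, and the alternatives with 1 value per gene called the same 4 genes. No member reversed with a call. Of members, 0 were called lower, except 1 (Gstk1) under trended, robust variance moderation, and 0 to 1 with any array left out, the 1 being Gstk1 without control replicate 3. Over all probe sets the count of higher calls was 470 and ran from 280 to 354 with an array left out. The count of lower calls was 285 and ran from 79 to 270 with an array left out. It was 428 with log2(value + 16) and 610 under trended, robust moderation. The cause was not tested. With the replicate block the counts were 342 higher and 177 lower, and all 5 member calls remained. Deviations from the group mean correlated at 0.04, 0.16 and 0.08 for same-numbered arrays, and from -0.14 to 0.07 for the other pairings. Replicates 2 and 3 of caNrf2 correlated best with the control of their own number, and caNrf2 replicate 1 with control replicate 3. With 3 arrays per group these values cannot decide whether the numbers in the titles mark pairs. With a minimum mean intensity of 32, 10 of the 13 member probe sets were left. Signals of Gsto2, Gstt2, Gstt3 and the dim probe sets of Mgst1 and Mgst3 were no brighter than some Y-linked probe sets, which limits what can be seen there.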
